A study of Mus musculus with 26 samples.

Results

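The 6 genes described here, Zscan4c, Zscan4d, Zscan4f, Tcstv1, Tcstv3 and Zfp352, are transcripts by which the 2-cell-like state of mouse embryonic stem cells (ESCs) is recognised. They were chosen by name and located with RefSeq gene positions of GRCm38.p6, which has the coordinates of mm10. All 6 were found among 21521 protein-coding genes on chromosomes 1 to 19 and X, and they occupy 3 places in the genome: 3 genes on chromosome 7, 2 on chromosome 13 and 1 on chromosome 4. The boundaries around them came from Micro-C, a chromosome conformation assay that cuts chromatin with micrococcal nuclease, in cells in the G1 phase.

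The boundary list was made from 6 libraries, pooled, of ESCs that received 0.05% v/v DMSO as vehicle. These cells are a RAD21-dTAG line derived from Bruce-4 ESCs with a C57BL/6J genotype, grown in serum/2i/LIF medium. All groups of the study carry the degradable tag on the cohesin subunit RAD21, the vehicle group included, and whether the line is a single clone is not given in the labels. Groups treated with dTAG, which degrades tagged RAD21, or with A485, which inhibits acetylation by p300 and CBP, and the epiblast-like cells were not analysed here. The list gives only positions, so its values come without a spread between replicates or a contact depth, and no difference below carries a test. It also holds no expression values, so neither the ESC label nor activity of the 6 genes could be set against marker genes.

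Mouse embryos activate their genome at the 2-cell stage, and a small and changing fraction of cultured ESCs re-enters a similar state, in which the transcription factor DUX, Zscan4 genes and MERVL retroviral elements are switched on together. Zscan4 genes encode nuclear proteins with a SCAN domain and zinc fingers and are known for their part in telomere maintenance. Tcstv1 and Tcstv3 are short genes transcribed in 2-cell embryos, and Zfp352 encodes a zinc finger protein of the early embryo. A boundary is a position that contacts cross less often than neighbouring positions, and the sequence from one boundary to the next is called a domain. Since the libraries were made from whole cultures, the map describes the cells as a mixture, and 2-cell-like cells were not separated from the others.

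The sequence before each gene start is shown because it makes visible how alike the chromosome 7 copies are, and how unlike them Zfp352 is. RefSeq start windows of GRCm38.p6 were matched for 4 of the 6 genes; Tcstv1 and Tcstv3 are named only. Each line gives the 250 bases before the annotated start, 5′ to 3′ along the gene. Zscan4b, a protein-coding copy of the same array, is added for comparison. Its window is chr7:10905051-10905300 on the minus strand. That of Zscan4c is chr7:11005495-11005744 on the plus strand, that of Zscan4d is chr7:11166149-11166398 on the minus strand, and that of Zscan4f is chr7:11397665-11397914 on the plus strand. The window of Zfp352 is chr4:90218570-90218819 on the plus strand. Capitals mark TATAAA in the Zscan4 copies and TAATCC in Zfp352, each searched on both strands. No overlap between these motifs was present.
Zscan4c: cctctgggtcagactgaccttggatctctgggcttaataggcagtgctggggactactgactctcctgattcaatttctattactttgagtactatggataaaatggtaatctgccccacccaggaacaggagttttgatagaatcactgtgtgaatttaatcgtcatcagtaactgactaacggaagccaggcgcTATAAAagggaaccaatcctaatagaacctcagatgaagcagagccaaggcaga
Zscan4d: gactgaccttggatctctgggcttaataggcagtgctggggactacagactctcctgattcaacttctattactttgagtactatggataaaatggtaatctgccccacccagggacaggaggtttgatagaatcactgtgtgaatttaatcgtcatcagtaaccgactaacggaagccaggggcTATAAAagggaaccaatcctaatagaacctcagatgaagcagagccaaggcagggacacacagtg
Zscan4f: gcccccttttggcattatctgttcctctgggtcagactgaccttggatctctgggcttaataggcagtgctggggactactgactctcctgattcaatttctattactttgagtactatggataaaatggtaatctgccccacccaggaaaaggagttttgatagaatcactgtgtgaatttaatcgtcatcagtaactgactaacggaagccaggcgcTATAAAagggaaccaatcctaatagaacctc
Zscan4b: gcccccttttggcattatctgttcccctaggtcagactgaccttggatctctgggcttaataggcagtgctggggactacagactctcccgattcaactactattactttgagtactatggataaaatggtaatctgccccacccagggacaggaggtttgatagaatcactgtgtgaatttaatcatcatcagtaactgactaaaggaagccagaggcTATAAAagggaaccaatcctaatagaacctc
Zfp352: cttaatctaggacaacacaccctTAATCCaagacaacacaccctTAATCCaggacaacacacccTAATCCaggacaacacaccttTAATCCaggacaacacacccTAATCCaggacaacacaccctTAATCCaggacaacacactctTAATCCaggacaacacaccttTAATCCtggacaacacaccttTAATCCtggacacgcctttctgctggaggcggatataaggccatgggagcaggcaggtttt

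Zscan4c and Zscan4f were nearly identical over this stretch, with 226 of 227 aligned bases the same and no gap. Zscan4d matched Zscan4c at 232 of 239 aligned bases (97.1%) and Zscan4f at 209 of 216 (96.8%). Zscan4b matched Zscan4d at 97.2%, Zscan4c at 94.7% and Zscan4f at 94.8% of aligned bases. Of the 201 windows of 50 bases in the Zscan4c stretch, 134 (66.7%) also stood before another gene, and 128 (63.7%) of those in Zscan4f did. The share was 24.9% for Zscan4d and 22.4% for Zscan4b. In each case the other genes were Zscan4 copies alone among the 27025 genes of the sequence table. Zfp352 had 0 such windows, and of all genes listed there, 8.30% had at least 1. Such windows do not tell the copies apart, and whether reads were placed there was not tested.

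Each Zscan4 window held TATAAA once, 54, 65 and 31 bases before the annotated start in Zscan4c, Zscan4d and Zscan4f and 31 bases before it in Zscan4b. These distances differ because the annotated starts differ along nearly the same sequence. TATAAA was present in 12.4% of all 32851 start windows in the table. The Zfp352 window had no TATAAA but carried TAATCC 9 times in a tandem array with a shared spacer, GGACAACAC, that occurred 8 times. TAATCC stood in 6.25% of all windows and GGACAACAC in 0.140%, and no other window reached 9 copies of the first or 8 of the second. All 5 windows were poorer in GC than the median window, at 44.8% for Zscan4c, 46.4% for Zscan4d, 44.0% for Zscan4f, 44.8% for Zscan4b and 47.2% for Zfp352, against 52.4%.

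None of the 6 genes lay close to a boundary. The list holds 3515 boundary intervals of 25 kb, and a gene counted as near when one of its ends fell inside an interval or within 10 kb of it. By that measure 0 of 6 were near (95% Wilson interval 0 to 39.0%, counting error only, and neighbours in an array share a position), against 18.3% of all protein-coding genes. Within 50 kb there were also 0 of 6, against 35.6% of all. Of the 6, 5 were more than 500 kb from any boundary, against 7.29% of all protein-coding genes. Their median distance was 1169.8 kb, against 98.9 kb over all protein-coding genes. With 1 value for each of the 3 loci, the median was 730 kb.

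Zscan4c was the farthest of the 6, at 1789 kb, and only 241 of 21521 protein-coding genes lay farther from a boundary. Zscan4d followed at 1634 kb and Zscan4f at 1398 kb, with 272 and 318 genes farther than they were. Tcstv3 lay 942 kb away and Tcstv1 518 kb, which placed 566 and 1479 genes beyond them. Zfp352 was the closest, at 344 kb, and still farther out than 85.9% of protein-coding genes. Neighbours in this order differed by more than the 25 kb width of an interval, so their order does not rest on where in an interval the boundary lies. For scale, the core pluripotency genes Sox2, Pou5f1 and Nanog lay 24.995, 56.0 and 160 kb from a boundary.

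**Figure D1:**
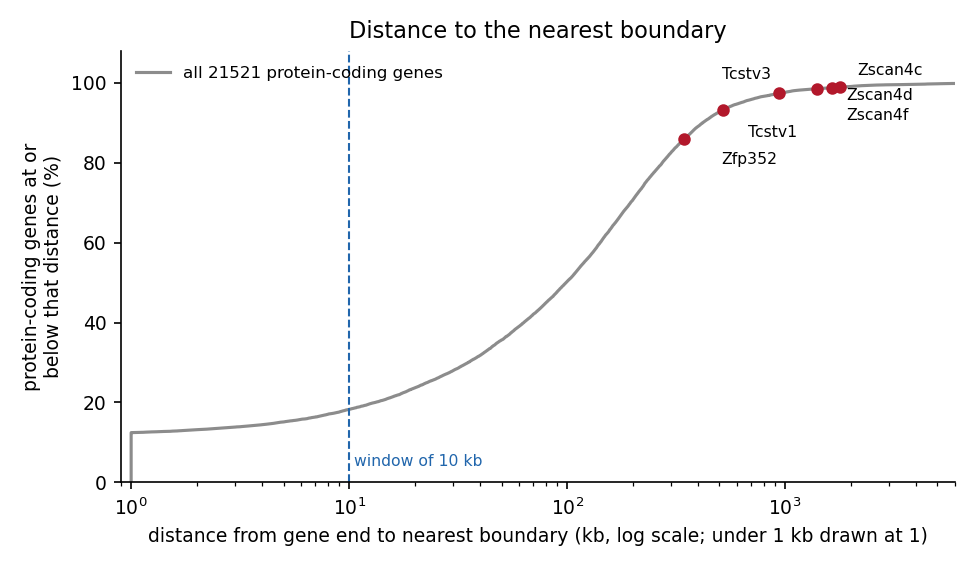
Distance from the nearer end of a gene to the nearest boundary (kb, log scale) on the x axis, and the percent of all 21521 protein-coding genes at or below that distance on the y axis (grey line). Red points mark the 6 genes, which lie between 344 and 1789 kb on the upper end of the curve, all right of the dashed line at 10 kb.

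The 3 loci differed in how they stood to their boundaries. The Zscan4 genes lay deep inside a very long domain, Zfp352 lay off centre in a domain of 1500 kb with few genes, and the Tcstv genes lay in no domain, beyond the last boundary of their chromosome. Thus 4 of the 6 genes were in a domain of at least 1500 kb, which held 11.4% of all protein-coding genes, and 2 of 6 lay past a last boundary, as did 0.609% of all. On average chromosomes 7, 13 and 4 had 1.38, 1.45 and 1.35 boundaries per Mb between their first and last ones.

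**Figure D2:**
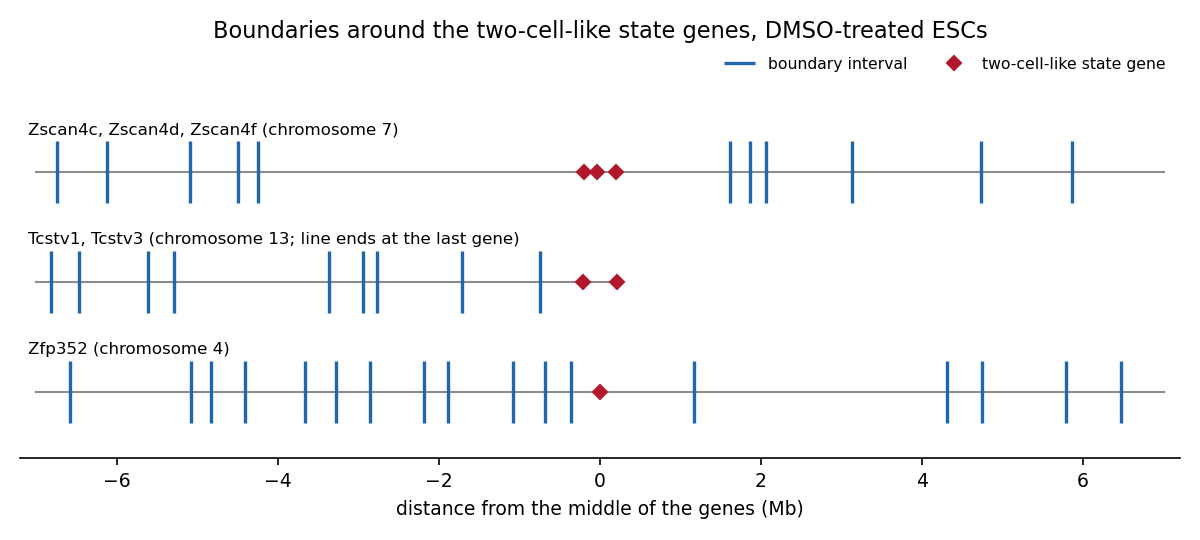
Boundary intervals (blue bars) and the 6 genes (red diamonds) on 3 chromosomes, drawn to one scale as distance in Mb from the middle of the genes of each locus. The nearest boundaries leave 5825 kb free around the Zscan4 genes and 1500 kb around Zfp352, and none follows the Tcstv genes.

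The 3 Zscan4 genes belong to an array of 9 annotated copies on chromosome 7, from 10794241 to 11614112, a span of 820 kb. In chromosome order these are Zscan4a, Zscan4b, Zscan4c, Zscan4-ps1, Zscan4d, Zscan4e, Zscan4f, Zscan4-ps2 and Zscan4-ps3. The annotation calls 4 of them protein-coding, namely Zscan4b and the 3 genes described here, and 5 pseudogenes, one of them transcribed (Zscan4a). The copies alternate in kind: a protein-coding copy and a pseudogene follow each other from Zscan4c to Zscan4-ps2. Zscan4c and Zscan4f are on the plus strand, and Zscan4d and Zscan4b on the minus strand. All 9 copies are of like size, from 4311 bases in Zscan4b to 4825 in Zscan4a, with Zscan4c at 4803, Zscan4d at 4506 and Zscan4f at 4404. They are spread thinly, with gaps of 54.6 to 140 kb between neighbours and a median gap of 96.3 kb.

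No boundary fell inside the Zscan4 array. Each gap between copies is wider than a 25 kb interval, but whether a boundary could be called in these gaps was not tested. The array starts 3819 kb after the boundary on one side and ends 1186 kb before the boundary on the other. Along it, the distance to the nearest boundary is 2001 kb at Zscan4a, lower at each following copy and 1186 kb at Zscan4-ps3, because the same boundary is nearest to all 9 copies. Of the 41 annotated genes in the array, 34 are pseudogenes (82.9%), against 20.8% of all annotated genes. Without the 9 Zscan4 copies, 29 of 32 are pseudogenes. The array also holds 1 miRNA gene, Mir297-1.

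The domain around the array runs from 6975001 to 12800000 on chromosome 7. At 5825 kb it was the third longest of 3495 domains, whose median was 500 kb. Whether boundaries could be called along all of this stretch was not tested, so its length is that of the list as given. The domain holds 64 protein-coding genes, against a median of 3 per domain, or 1.10 per 100 kb, against a median of 0.667. The domain is therefore long without being poor in genes, and 67.0% of domains had a lower density. Its 222 annotated genes include 140 pseudogenes (63.1%).

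Most of its protein-coding genes are vomeronasal receptor genes, which encode pheromone receptors of the vomeronasal organ. Type 1 receptors make up 19 and type 2 receptors 28 of the 64. The families are nested around the Zscan4 copies. Type 1 receptor genes flank the array directly, 6 on the low-coordinate side up to Vmn1r71 and 13 on the high-coordinate side from Vmn1r72. Outside them lie type 2 receptor genes, 24 on the low side and 4 on the high side. The domain holds 13 further protein-coding genes. At its low end these include Aurkc, which encodes the meiotic Aurora kinase C, and the zinc finger genes Zfp954, Zfp773, Zfp418 and Zfp772. Nearest the array are Nlrp4b, of a family with oocyte-expressed members, and Zik1, and towards the high end lie Zfp551, Zfp606 and Zscan18.

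**Figure D3:**
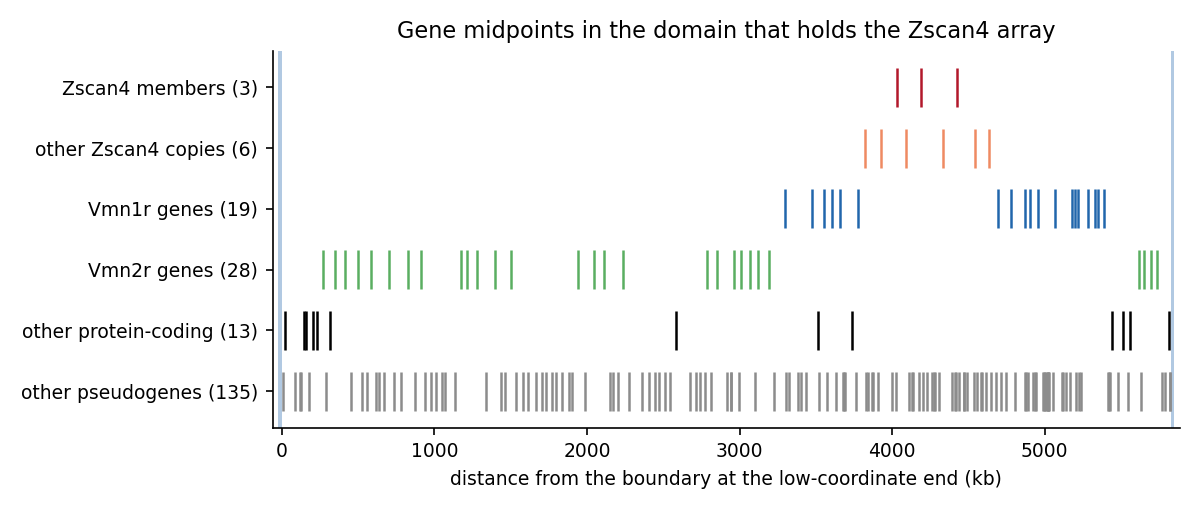
Midpoints of annotated genes (bars) along the domain that holds the Zscan4 array, as distance in kb from the boundary at its low-coordinate end, with a row for each class and the number of genes in brackets. The 9 Zscan4 copies sit between 3 and 5 Mb in, with Vmn1r genes on both sides, Vmn2r genes outside these, and the boundaries (blue) only at the 2 ends.

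The boundaries that close this domain both hold protein-coding genes. The low one, from 6950001 to 6975000, contains an end of Usp29, a ubiquitin protease gene of the imprinted Peg3 cluster, and overlaps the non-coding gene Zim3. The high one, from 12800001 to 12825000, contains all of the zinc finger gene Zfp329 and an end of Zscan18, and Zfp110 lies 9.76 kb beyond it. Both are followed outward by a short domain of 225 kb. The low side of the domain has 7 boundaries in the 3.38 Mb back to the first of the chromosome, and the high side has 6 in 5 Mb, the flanking ones included, so the long gap in boundaries lies between stretches that are divided.

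Trim28, which encodes the corepressor KAP1 that silences retroviral elements and represses the 2-cell programme in ESCs, lies in the 225 kb domain just beyond the high boundary. That domain runs from 12825001 to 13050000 and holds 14 protein-coding genes. Trim28 begins 1622 kb after Zscan4f and 199 kb after the boundary that parts it from the Zscan4 domain. Trim28 was among the genes listed for this comparison, and its place beside the Zscan4 domain was noticed from its position afterwards.

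Tcstv1 and Tcstv3 lie near the end of chromosome 13. Tcstv1 runs from 119893387 to 119894785 and Tcstv3 from 120316862 to 120318261, and they are almost equal in length, at 1399 and 1400 bases. Tcstv3 is the last annotated gene of the chromosome. The last of its 168 boundaries, from 119350001 to 119375000, lies wholly inside Nnt, which encodes the mitochondrial nicotinamide nucleotide transhydrogenase. From there 943 kb without a boundary run to the end of Tcstv3, the fifth longest of 20 such end stretches, which ranged from 74.1 to 1839 kb with a median of 492 kb. The domain before that boundary was 950 kb long.

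This end stretch held 19 protein-coding genes, or 2.01 per 100 kb, against a median of 0.667 over domains. The 20 end stretches, each measured to its last gene, ranged from 0.218 to 4.71 per 100 kb. Those of chromosomes 2, 4, 7, 9 and 10 were denser than this one, and the rest were sparser. The stretch of chromosome 13 falls into parts. Next to the boundary are genes of varied function. Among them are Paip1, which encodes a partner of the poly(A)-binding protein, Hmgcs1 of cholesterol synthesis, the chemokine gene Ccl28 and the zinc finger gene Zfp131. Beyond Zfp131 come mostly genes without a descriptive name. From Tcstv1 to Tcstv3, over 425 kb, the annotation has 28 genes, of which 10 are protein-coding and 13 pseudogenes (46.4%, against 20.8% of all annotated genes). The 8 protein-coding genes beside the pair are Gm21761, B020031M17Rik, Gm36079, Gm21188, Gm20767, Gm21818, AF067061 and BC147527. Of these Gm21761, B020031M17Rik, Gm21818 and AF067061 are 1.42 to 1.49 kb long, close to the Tcstv genes. No other gene carries a Tcstv symbol in this annotation, and no sequence was compared here.

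Zfp352 stands alone. It runs from 90218820 to 90225687 on the plus strand of chromosome 4, is 6868 bases long and is the longest of the 6 genes. It had 0 protein-coding neighbours within 500 kb, counted between midpoints, which was true of 1.34% of protein-coding genes. The median gene had 15 such neighbours, Zscan4c, Zscan4d and Zscan4f had 8, 5 and 7, and Tcstv1 and Tcstv3 had 18 and 10. The nearest protein-coding genes were Dmrta1, 524 kb away across the boundary, and Elavl2, 986 kb away in the same domain. Zfp353-ps, which has the neighbouring symbol, is a pseudogene on another chromosome.

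The Zfp352 domain runs from 89875001 to 91375000. Its length of 1500 kb exceeded that of 91.4% of domains, and 9 domains have exactly this length. Zfp352 lay 23.2% of the way along it, 344 kb from the low boundary and 1149 kb from the high one. By midpoint the domain holds 2 protein-coding genes, Zfp352 and Elavl2, a neuronal RNA-binding protein gene, and 8 of its 12 annotated genes are pseudogenes. At 0.133 protein-coding genes per 100 kb, it was sparser than the Zscan4 domain (1.10), and 14.4% of domains were sparser still.

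The low boundary of this domain, from 89850001 to 89875000, had no annotated gene end within 10 kb. The high one, from 91375001 to 91400000, lies inside Elavl2, one end of which is 0.108 kb beyond the interval, and the miRNA gene Mir6402 lies 1.64 kb before it. Beyond the low boundary the next domain measured 300 kb, and beyond the high boundary it measured 3125 kb. Zfp352 thus lay on the side where boundaries are denser, with 11 in the 5 Mb below its domain and 4 in the 5 Mb above it, the flanking ones included.

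**Figure D4:**
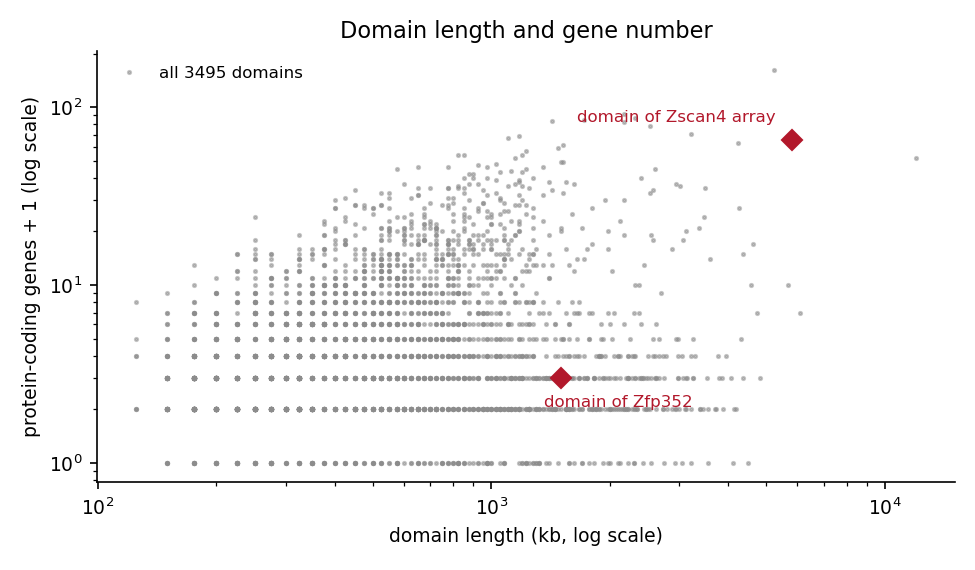
Length (kb, log scale) and number of protein-coding genes plus 1 (log scale) of all 3495 domains (grey points). The domain of the Zscan4 array, at 5825 kb with 64 genes, lies at the upper right, and that of Zfp352, at 1500 kb with 2 genes, lies to the right of most domains of like gene number.

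With a single pooled list no pattern across samples can be compared, so likeness was taken as closeness in log2 length and log2 number of annotated genes plus 1. The domain most like that of Zscan4 was also on chromosome 7, from 19150001 to 24375000, with 5225 kb and 259 annotated genes, among them Nlrp9b and Nlrp4e. It had 160 protein-coding genes and 81 pseudogenes, against 64 and 140 in the Zscan4 domain. Nlrp genes stand in both domains, but they are only 1 of the 64 protein-coding genes of the Zscan4 domain. Other families, vomeronasal receptor genes included, were not counted in the like domain. The vomeronasal content is thus not shown to be particular to the Zscan4 domain. The next were a 4250 kb domain on chromosome 14 with Gm21154 and Txndc16, and the 2950 kb domain on chromosome 7 that holds Snrpn and Ube3a. For Zfp352, 3 domains had the same length and the same 12 annotated genes in number. They hold Utrn and Epm2a on chromosome 10, Cpeb2 and Gm46911 on chromosome 5, and Nell1 and 4933405O20Rik on chromosome 7.

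Further genes of the 2-cell programme were read in 3 lists: other transcripts of the state, its activators and its repressors. The lists were chosen with earlier results of these data known, so their shares are description only. All 12 other transcripts lay more than 100 kb from a boundary, as did all 6 genes described above, against 49.7% of all protein-coding genes. They occupy 6 domains, so they are not 12 independent positions. Their median distance was 205 kb, with a range of 104 to 672 kb. The Usp17l deubiquitinase genes lay in 2 long domains of chromosome 7. Usp17la, Usp17lb and Usp17le shared 2525 kb with 77 protein-coding genes, and Usp17lc and Usp17ld shared 1425 kb with 83. Usp17ld was the farthest of the 12, and Usp17lc lay 506 kb from a boundary. The Tdpoz genes, which encode proteins with TRAF and POZ domains, lay together in an 800 kb domain of chromosome 3 with 10 protein-coding genes and 21 pseudogenes, 127 to 301 kb from its edge. Tmem92, Sp110 and Ubtfl1 lay 202, 214 and 104 kb away.

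Of the 5 activators none was within 10 kb of a boundary (Wilson interval 0 to 43.4%), against 18.3% of all protein-coding genes. Within 50 kb there were 2 of 5, against 35.6% of all. Their median distance was 58.7 kb, against 98.9 kb over all protein-coding genes. It was 1169.8 kb for the 6 genes or 730 kb over their 3 loci, and these differences were not tested. Duxf3, the gene of the DUX factor, lay 41.9 kb from a boundary in an 825 kb domain of chromosome 10. Dppa2 and Dppa4, whose products activate Dux, shared an 800 kb domain at 85.3 and 58.7 kb. Tbx3 lay 40.3 kb away in a 950 kb domain with no other protein-coding gene, and Nelfa was the farthest, at 248 kb.

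Repressors of the state included the only members of the 3 lists with an end within 10 kb of a boundary, 3 of 13 (23.1%, Wilson interval 8.18 to 50.3%), a share near the 18.3% of all protein-coding genes. Rif1, Pcgf6 and Ncl each had an end inside a boundary interval. They encode a replication timing factor, a subunit of a variant Polycomb complex and nucleolin. Zmym2 has a boundary inside its gene body, at its midpoint, and its nearer end lies 13.5 kb from that interval. Of the others, Trim28, Kdm1a and Ehmt2 lay 19.0, 22.2 and 48.5 kb away. Chaf1a and Chaf1b, subunits of chromatin assembly factor 1, lay 90.4 and 259 kb away, and Smchd1, Mga, L3mbtl2 and Setdb1 lay 175, 223, 239 and 274 kb away. The repressors had a median of 48.5 kb, against 98.9 kb over all protein-coding genes.

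**Figure D5:**
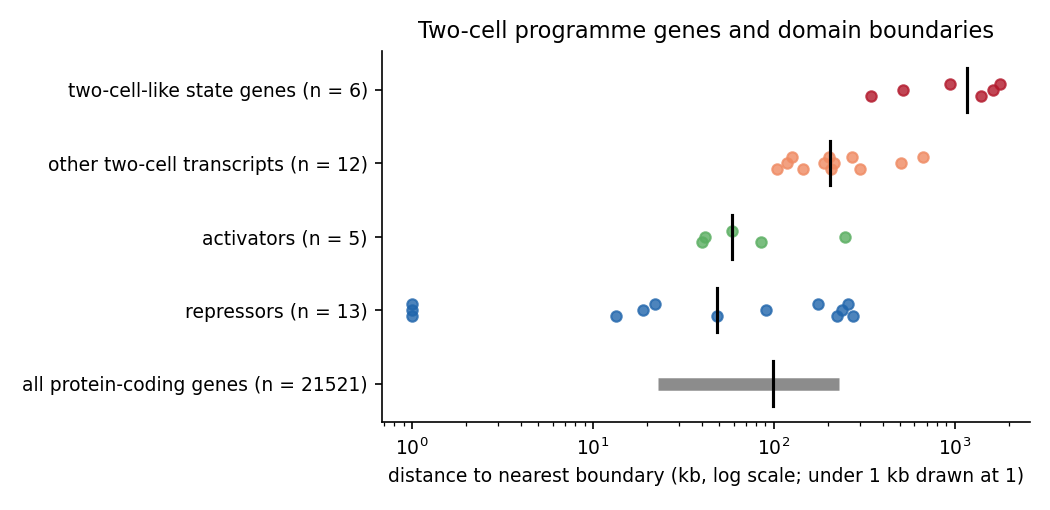
Distance to the nearest boundary (kb, log scale) for the 6 genes, 12 other transcripts, 5 activators and 13 repressors of the 2-cell-like state (points, with the median as a black bar), above the quartiles and median of all 21521 protein-coding genes (grey bar, 22.8 to 229 kb, black bar at 98.9 kb). All points of the upper 2 rows lie right of 100 kb, and the 3 repressors drawn at 1 kb have an end inside a boundary.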

How the data were processed

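The authors prepared the Micro-C libraries and pooled those of the DMSO-treated ESCs for the boundary list, per the labels. BWA 0.7.17, Juicer 1.22.01 and the build mm10 are named in the submitters' processing notes. The deposited list gives start and end positions in bp, with no score. How boundaries were called is not given in the sources used here, and contact depth is unknown.

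Positions were turned to count from 1. RefSeq genes placed on scaffolds but carrying a chromosome name (345 genes) were recognised by their position after the sorted genes of a chromosome and left out, which kept 49209. Distances run from the nearer gene end to the nearest interval edge, and genes were assigned to domains by midpoint. Start windows were aligned without penalty for overhanging ends. Distances and counts were checked against direct computation on simulated data and matched in 500 of 500 genes and 39 of 39 domains. The genes and lists were chosen with earlier results of these data known. Named genes are the 6, their families, the genes of their arrays, domains and flanking boundaries, and the 3 lists. No test was run, because the list is a single pooled value without replicates. Alternatives changed the window, the gene point, the interval point, the counting unit and the gene classes. Wilson intervals, where a share carries one, are at 95%. Computation used Biopython 1.88, matplotlib 3.10.9, scipy 1.17.1, pandas 2.3.3 and numpy 2.4.6 under Python 3.11.15.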

Additional observations from a re-analysis of the deposited data

How the results depend on the processing

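The share of the 6 genes near a boundary stayed at 0 of 6 with no window, with a window of 50 kb, with gene midpoints, and with neighbours under 100 kb apart merged, which joined none of them. The closest gene, Zfp352, lay 344 kb from a boundary, so neither the windows, the gene midpoints nor the merging could have changed this share. Each gene's distance moved by less than the 25 kb width of an interval when the middle of the interval or of the gene was used. Both domain lengths grew by 25 kb, to 5850 and 1525 kb, when measured between the middles of intervals. The median distance was 730 kb when each of the 3 loci gave 1 value. The wider lists had 30.0% of 30 genes within 50 kb, against 10.0% within 10 kb, and all protein-coding genes had 35.6% and 18.3%. Counting all annotated genes gave 222 in the Zscan4 domain and 12 in the Zfp352 domain, in place of 64 and 2. No paired analysis was possible because the boundary list pools its 6 libraries, and for the same reason no library could be left out. Contact depth and the placement of reads in near-identical copies limit what a missing boundary says, and neither was tested.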
